A study of Saccharomyces cerevisiae with 33 samples.

Results

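The genes described here encode the enzymes that lead from acetyl-CoA through mevalonate and farnesyl diphosphate to squalene, the early part of ergosterol synthesis in yeast. They were taken by gene symbol alone and are 10 of the 5449 Saccharomyces cerevisiae genes read on the array: ERG10 (YPL028W), ERG13 (YML126C), HMG1 (YML075C), HMG2 (YLR450W), ERG12 (YMR208W), ERG8 (YMR220W), MVD1 (YNR043W, also called ERG19), IDI1 (YPL117C), ERG20 (YJL167W) and ERG9 (YHR190W). All 10 had exactly 1 probe set. None of their 330 values lay at or below the background level of 5.47 on the log2 scale, which is the 95th percentile of 1746 probe sets whose listed gene is not one of S. cerevisiae.

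The study grew 5 isogenic yeast strains in aerobic chemostats, continuous cultures held at one growth rate, and asked how the level of the Ino2-Ino4 activator shapes lipid metabolism when carbon (C) or nitrogen (N) is the nutrient in short supply. RNA was measured on 33 Affymetrix Yeast Genome 2.0 arrays, 3 in each of 11 groups, as deposited log2 signal. The N-limited groups were opi1Δ, ino2Δ, ino4Δ, the double deletion ino2Δino4Δ and the reference strain, 15 arrays in all. The C-limited groups were opi1Δ sampled at maximum CO2, opi1Δ sampled at minimum CO2, ino2Δ, ino4Δ, ino2Δino4Δ and the reference strain, 18 arrays in all. The opi1Δ strain was sampled at those phases because its CO2 output oscillated under C-limitation. The study reported that the phases differed mainly in cell cycle genes. It excluded the maximum-CO2 sample, whose respiratory quotient was above that of every other C-limited strain, and let minimum CO2 stand for opi1Δ under C-limitation. Differences at maximum CO2 therefore hold the phase as well as the deletion. All strains descend from the prototrophic CEN.PK laboratory background of mating type a, each deletion strain is a single constructed line, and all cultures received inositol and choline, so that the reference was supplemented too. The study describes measurements on these cultures as biological replicates, but the labels do not tie the arrays to separate cultures, so p-values measure the spread between these arrays, which may be technical.

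Yeast condenses acetyl-CoA into hydroxymethylglutaryl-CoA (HMG-CoA), which HMG-CoA reductase turns into mevalonate in the step regarded as the main control point of the pathway. Mevalonate is then phosphorylated and decarboxylated to the C5 isoprene unit, and these units are joined to farnesyl diphosphate, the branch point to sterols, ubiquinone, dolichol, haem A and prenylated proteins. The reductase exists as a pair of paralogs: HMG1 is known as the isozyme of aerobic cells, whose transcription needs haem and the activator Hap1, and HMG2 as the isozyme favoured at low oxygen, whose protein is degraded when farnesyl-derived signals build up. Ino2-Ino4 activates phospholipid genes, and Opi1 represses them by holding Ino2-Ino4 back.

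The deleted genes were checked first. OPI1 lay at or below 5.43 on all 9 opi1Δ arrays, against group means of 7.98 in the N-limited reference and 8.06 in the C-limited reference. Of the mating type genes, the a-specific MFA1, MFA2 and STE2 were above background on all 33 arrays and the alpha-specific MF(ALPHA)2 on none, but MF(ALPHA)1 was at or below background on only 4 of 33 and ranged over 5.35 to 11.49, and STE3, at 5.26 to 6.30, on only 2; why was not tested. INO1, the textbook target of Ino2-Ino4, averaged 12.23 ± 0.17 in N-limited opi1Δ, against 7.54 ± 0.29 in the N-limited reference (SD, n = 3). Among the C-limited arrays 4 went against their labels. On the arrays labelled ino2Δ, INO4 read 6.53, 5.08 and 5.06 on replicates 1, 2 and 3, so that INO4 as well as INO2 was below the background level on replicates 2 and 3. On those labelled ino4Δ, INO2 read 6.34, 6.18 and 5.19, so that replicate 3 was below it for both genes. On those labelled ino2Δino4Δ, INO4 read 6.64, 5.09 and 5.15, so that replicate 1 showed INO4. Results on these groups are given for the arrays as labelled, and many of them again without those 4 arrays. This leaves 1 array in the group labelled ino2Δ, and a difference from a lone array is given by its size alone. Separately, 5 arrays differed from the other arrays of their own group across many genes in the same way: replicate 1 of the N-limited reference, replicates 1 and 3 of N-limited ino2Δino4Δ, and replicates 1 and 3 of opi1Δ at minimum CO2. The first component of the deviations within groups held 44.2% of the within-group variance, and these 5 arrays had its 5 lowest scores. In opi1Δ at minimum CO2 and N-limited ino2Δino4Δ the lone array on the other side, replicate 2, had the highest scores of all (28.5 and 20.7), so that calling the other pair the deviating arrays is a choice of sign. Their source was not tested. Leaving out the 5 arrays leaves 1 array, replicate 2, in each of these groups, and differences from it are given by size alone.

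HMG1 passed the test in 6 of 19 comparisons, more than any other member. In 1 limma fit across all 5449 genes (Benjamini-Hochberg adjustment, threshold 0.01), it was lower in the N-limited than the C-limited reference, lower in opi1Δ at maximum CO2 than in either the C-limited reference or opi1Δ at minimum CO2, and lower in the arrays labelled C-limited ino4Δ than in the C-limited reference. HMG2 fell with HMG1 in opi1Δ at maximum CO2 but rose in opi1Δ at minimum CO2. ERG20 and MVD1, at the farnesyl and the isoprene steps, had their highest levels of all groups in N-limited opi1Δ. ERG10, the first enzyme, fell in opi1Δ at maximum CO2 and passed the test in no other comparison with a reference. ERG13 and ERG12 passed in none of the 19 comparisons.

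**Figure D1:**
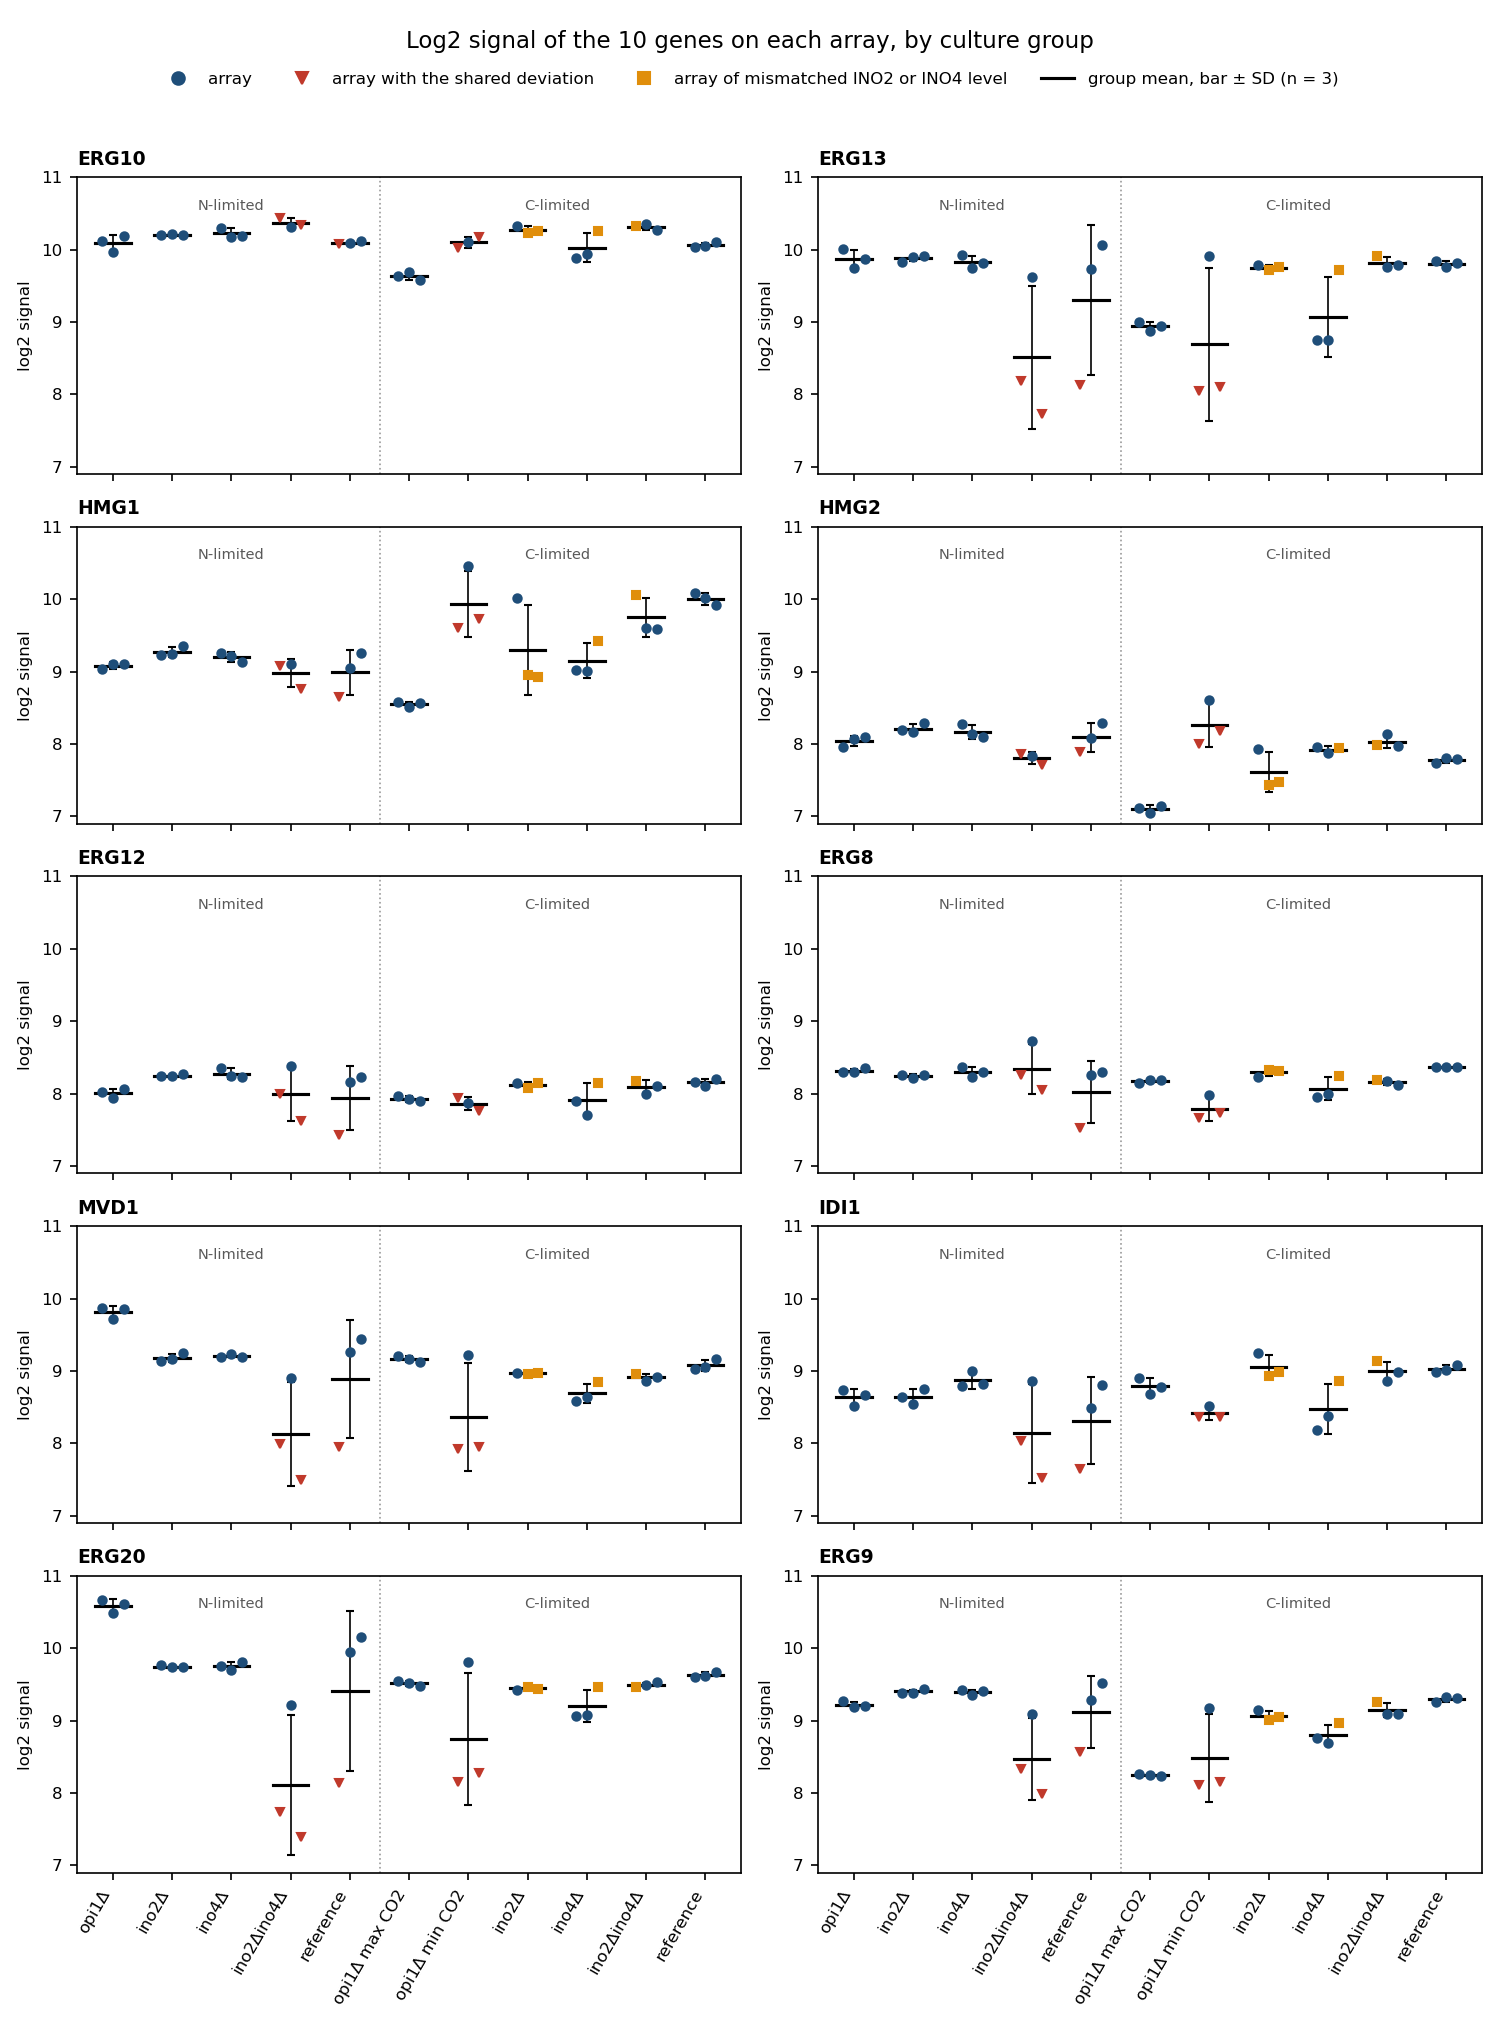
Log2 signal (vertical axes, 1 panel per gene) of the 10 genes on each of the 33 arrays, by culture group (horizontal axis), with group means and SD bars (n = 3); triangles mark the 5 arrays that share a deviation within their groups and squares the 4 arrays whose INO2 or INO4 level goes against the label. HMG1 and HMG2 were lowest in C-limited opi1Δ at maximum CO2, ERG20 and MVD1 were highest in N-limited opi1Δ, and the widest bars of ERG13, MVD1, ERG20 and ERG9 lie in the 3 groups with triangles.

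Against the N-limited reference, 0 of 10 passed in each of opi1Δ, ino2Δ, ino4Δ and ino2Δino4Δ, where 2.53%, 0.606%, 0.551% and 16.1% of all genes passed. Among the 10 members, the p-value was under 0.05 without adjustment only for ERG20 and MVD1 in opi1Δ, IDI1 and ERG12 in ino4Δ, and ERG20, MVD1, ERG9, HMG2, ERG10 and ERG8 in ino2Δino4Δ. Against the C-limited reference, 4 of 10 passed in opi1Δ at maximum CO2, all lower, where 31.1% of all genes passed, 17.5% higher and 13.7% lower. In opi1Δ at minimum CO2 2 of 10 passed, 1 in each direction, where 7.73% of all genes passed, 3.25% higher and 4.48% lower. In the arrays labelled ino4Δ 1 of 10 passed, lower, where 13.4% of all genes passed, 6.64% higher and 6.74% lower. In those labelled ino2Δ and ino2Δino4Δ 0 of 10 passed, where 0.826% and 0.569% of all genes passed.

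The comparison of N- with C-limitation called 1 member in the reference strain, lower under N-limitation, where 23.3% of all genes passed, 14.7% higher and 8.61% lower. In opi1Δ, N-limited cultures differed from C-limited cultures at minimum CO2 in 4 members, 3 higher and 1 lower, where 27.7% of all genes passed, 18.6% higher and 9.08% lower. It called 1 member in ino2Δ, higher (21.3% of all genes, 10.9% higher), 0 in ino4Δ (22.3% of all genes), and 3 in ino2Δino4Δ, all lower (25.8% of all genes, 11.4% lower). Within C-limited opi1Δ, 3 members were lower at maximum than at minimum CO2, where 45.4% of all genes passed and 17.0% were lower. The effect of a deletion was also compared directly between limitations, as the N-limited minus the C-limited effect: 1 member differed for opi1Δ, higher (4.73% of all genes, 2.88% higher), and 0 for ino2Δ, ino4Δ and ino2Δino4Δ, where 0.514%, 3.43% and 7.6% of all genes differed. The comparisons of the deletion strains share the arrays of the reference, so that their values for a member are not independent.

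**Figure D2:**
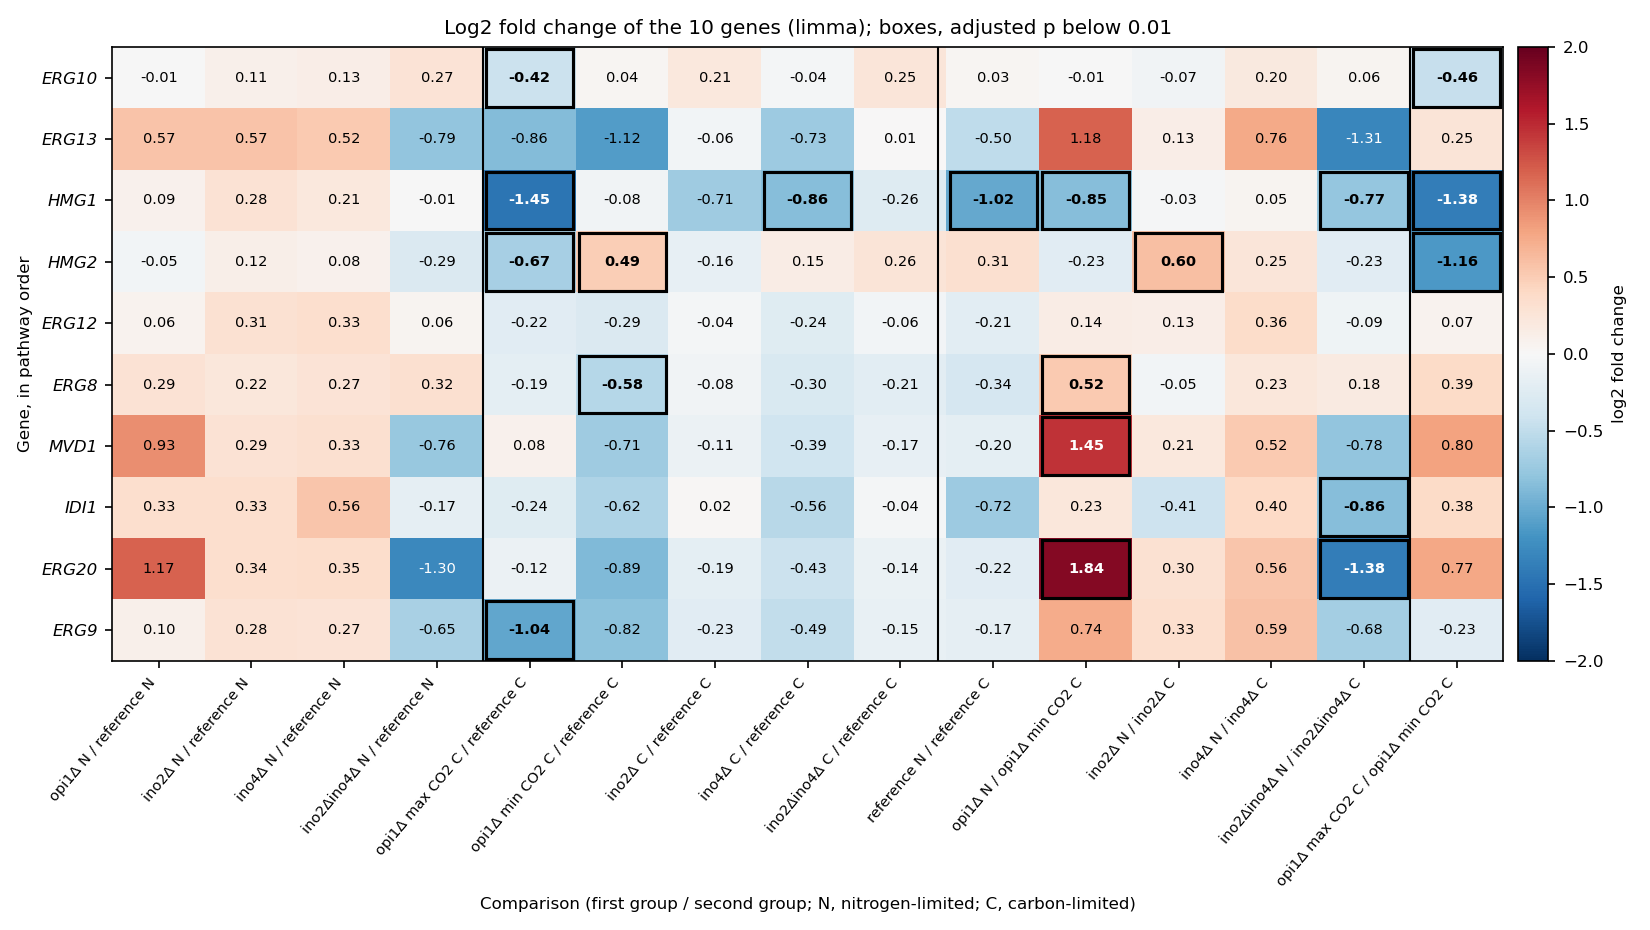
Log2 fold change of each gene (rows, in pathway order) in each of 15 comparisons (columns, first group over second group), coloured from blue (lower in the first group) to red (higher); boxes mark adjusted p below 0.01 in the limma fit. HMG1 carries 6 of the 19 boxes, and the 4 columns of N-limited deletions against the N-limited reference carry none.

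ERG10 encodes acetoacetyl-CoA thiolase, which joins a pair of acetyl-CoA molecules. It read 9.64, 9.70 and 9.58 in opi1Δ at maximum CO2, against 10.03, 10.10 and 10.17 in opi1Δ at minimum CO2 and 10.03, 10.05 and 10.10 in the C-limited reference. The maximum-CO2 arrays lay below every other array of the study. The log2 fold change was -0.42 against the reference (SE 0.08, limma adjusted p = 8.42e-05) and -0.46 against minimum CO2 (SE 0.08, limma adjusted p = 1.77e-05), and both calls were kept with any 1 array left out. In every other group the mean lay between 10.03 and 10.37, and its within-group SD of 0.08 was smaller than that of all but 6.85% of the genes; without the 5 arrays of the shared deviation it was 0.09, above ERG8 (0.07), MVD1 (0.07) and ERG9 (0.08). Its highest mean, 10.37 in N-limited ino2Δino4Δ, exceeded that of the N-limited reference by 0.27 without passing (limma adjusted p = 0.0103), although all 3 arrays, 10.44, 10.32 and 10.34, lay above the reference arrays at 10.08, 10.09 and 10.11.

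ERG13, HMG-CoA synthase, adds the third acetyl group. Its replicate arrays were far apart in several groups. In C-limited groups without the shared deviation it read 8.998, 8.88 and 8.95 in opi1Δ at maximum CO2, below the 9.84, 9.77 and 9.81 of the C-limited reference. These groups did not overlap, yet the difference of -0.86 (SE 0.43) did not pass (limma adjusted p = 0.111) in the fit over all 11 groups, which share 1 within-group SD, 0.56 for this gene. With only the arrays of those groups in the fit the same difference passed (limma adjusted p = 2e-07). On the arrays labelled C-limited ino4Δ it read 8.76, 8.75 and 9.71, and the array at 9.71 is the one with INO2 below background. Under N-limitation ERG13 stayed between 9.75 and 10.002 on the 9 arrays of opi1Δ, ino2Δ and ino4Δ.

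HMG1 and HMG2 encode HMG-CoA reductase. In the reference strain HMG1 read 8.66, 9.05 and 9.26 under N-limitation, against 10.08, 10.02 and 9.92 under C-limitation. The groups did not overlap, and HMG1 was 2.03-fold lower under N-limitation (log2 fold change -1.02, SE 0.22, limma adjusted p = 7.96e-04). The call was kept with any 1 array left out, at -1.15 to -0.85, and without the array of the shared deviation at -0.85 (limma adjusted p = 0.00288), but not in the methods' t-test (adjusted p = 0.0326). The 4 N-limited deletion groups had means of 8.98 to 9.27, which differed from the N-limited reference by -0.01 to 0.28 without passing (limma adjusted p = 0.601 to 0.982).

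Under C-limitation HMG1 was lower in opi1Δ at maximum CO2 and overlapped the reference at minimum CO2. It read 8.58, 8.52 and 8.57 at maximum CO2, against 9.61, 10.45 and 9.73 at minimum CO2, and 10.08, 10.02 and 9.92 in the reference. The arrays at maximum CO2 were lower than all 30 others. HMG1 was 2.74-fold lower at maximum CO2 than in the reference (log2 fold change -1.45, SE 0.22, limma adjusted p = 8.44e-06) and 2.60-fold lower than at minimum CO2 (-1.38, SE 0.22, limma adjusted p = 9.8e-06). At minimum CO2 it differed from the reference by -0.08 (limma adjusted p = 0.824). N-limited opi1Δ, at 9.03, 9.11 and 9.10, lay 0.85 below opi1Δ at minimum CO2 (SE 0.22, limma adjusted p = 0.00333), a call lost when replicate 2 at minimum CO2 was left out (-0.59, limma adjusted p = 0.0281) or when replicate 1 or 3 of N-limited opi1Δ was left out.

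On the arrays labelled C-limited ino4Δ, HMG1 read 9.02, 9.002 and 9.43, all below the reference arrays. It was 1.81-fold lower (log2 fold change -0.86, SE 0.22, limma adjusted p = 0.00632). The call was lost with any 1 array but ino4Δ replicate 3 left out (-0.90 to -0.78, limma adjusted p = 0.0137 to 0.0462). Without the arrays that went against their labels, replicate 3 among them, it was -0.997 (limma adjusted p = 1.17e-04). On the arrays labelled ino2Δ, HMG1 read 10.01, 8.95 and 8.93, where the array at 10.01 showed INO4 and the other pair did not, and on those labelled ino2Δino4Δ it read 10.06, 9.60 and 9.58, where again the array at 10.06 showed INO4. Neither group passed against the reference as labelled (-0.71 and -0.26, limma adjusted p = 0.0979 and 0.756). Without the mismatched arrays the ino2Δ value was 0.01 from 1 array, and without ino2Δ replicate 1 it was -1.07 (limma adjusted p = 4.48e-04). The effect of INO4 deletion on HMG1, N-limited minus C-limited, was 1.07 without passing (SE 0.31, limma adjusted p = 0.023); without the arrays that went against their labels it was 1.21 and passed (limma adjusted p = 5.28e-04).

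Under N-limitation ino2Δino4Δ, at 9.07, 9.10 and 8.76, lay 0.77 below the arrays labelled C-limited ino2Δino4Δ (SE 0.22, limma adjusted p = 0.00751). Any 1 array but ino2Δino4Δ N-limited replicate 2 ended that call when left out (-0.85 to -0.61). Leaving out the arrays that went against their labels ended it too (-0.61, limma adjusted p = 0.0104). Without the arrays of the shared deviation 1 N-limited array was left, and the difference was -0.64.

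HMG2 did not always change with HMG1. In opi1Δ it read 7.12, 7.05 and 7.15 at maximum CO2, against 8.002, 8.61 and 8.18 at minimum CO2 and 7.73, 7.81 and 7.79 in the C-limited reference. The 3 groups were fully separated, with maximum CO2 lowest and minimum CO2 highest. HMG2 was 1.59-fold lower at maximum CO2 than in the reference (log2 fold change -0.67, SE 0.12, limma adjusted p = 1.01e-04) and 2.23-fold lower than at minimum CO2 (-1.16, SE 0.12, limma adjusted p = 3.17e-08). At minimum CO2 it was 1.40-fold higher than in the reference (0.49, SE 0.12, limma adjusted p = 0.00842), a call lost with any 1 array but opi1Δ replicate 1 left out (0.32 to 0.53, limma adjusted p = 0.0154 to 0.0363). Without the arrays of the shared deviation, the 1 remaining array of opi1Δ at minimum CO2 lay 0.83 above the reference.

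In the reference strain HMG2 read 7.89, 8.09 and 8.29 under N-limitation, all above the C-limited arrays, but the difference of 0.31 missed the threshold (limma adjusted p = 0.0494). Without the array of the shared deviation it was 0.41 and passed (limma adjusted p = 0.00322). In ino2Δ, HMG2 was higher under N-limitation, at 8.19, 8.17 and 8.28, against 7.94, 7.43 and 7.48 on the arrays labelled C-limited ino2Δ (0.60, SE 0.12, limma adjusted p = 4.98e-04). Without the arrays that went against their labels 1 C-limited array was left, and the difference was 0.28.

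The difference between HMG1 and HMG2 within an array shows whether the paralogs changed unequally, though not which transcript was the more abundant, since the probe sets have their own scales. It was 0.76, 0.97 and 0.97 log2 in the N-limited reference, against 2.35, 2.22 and 2.13 in the C-limited reference, a mean difference of -1.33. In the N-limited deletions its means lay between 1.03 and 1.18, each above the N-limited reference at 0.90 ± 0.12 (SD, n = 3). In the C-limited deletions its means lay between 1.23 and 1.72, each below the C-limited reference at 2.23 ± 0.11 (SD, n = 3). The groups did not overlap in any of the 10 comparisons with a reference, and the exact two-sided permutation test gave p = 0.1 in each (0.1 after Benjamini-Hochberg adjustment over 10), the smallest value that 3 arrays against 3 allow. On the arrays labelled ino2Δ and ino2Δino4Δ, the array that showed INO4 read 2.08 in both groups and the others 1.45 to 1.61.

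**Figure D3:**
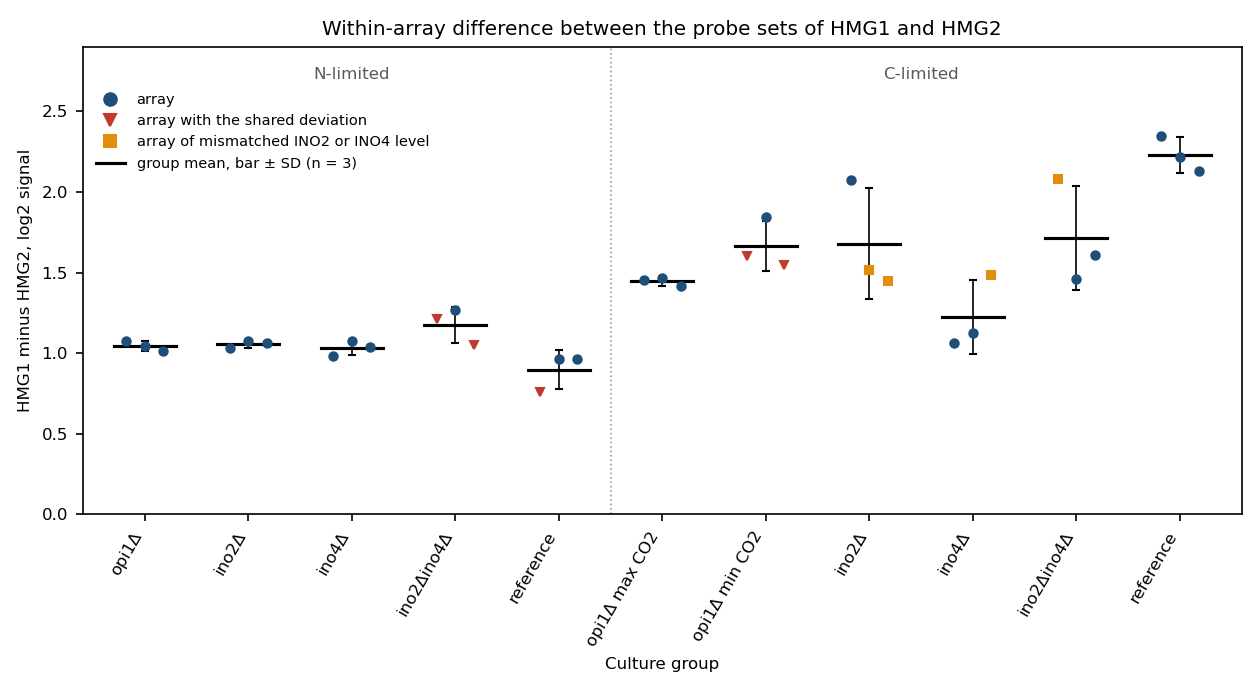
HMG1 minus HMG2 log2 signal within each array (vertical axis) by culture group (horizontal axis), with group means and SD bars (n = 3); triangles and squares mark the same arrays as in the plot of all members. The 15 N-limited arrays lie between 0.76 and 1.27, and the C-limited reference lies above all other groups.

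Genes that act on the reductase were read from lists of its regulators. HAP1, the haem-responsive activator of HMG1, was lower in 3 of the 6 comparisons in which HMG1 passed: -0.98 in the N-limited against the C-limited reference (limma adjusted p = 0.00499; -0.74 and 0.0136 without the array of the shared deviation), -0.93 in opi1Δ at maximum CO2 against the C-limited reference (limma adjusted p = 0.00581), and -1.05 in the arrays labelled C-limited ino4Δ against it (limma adjusted p = 0.00503; -1.19 and 3e-04 without the mismatched arrays). In the other 3 HAP1 did not pass, at -0.06 in opi1Δ at maximum against minimum CO2, -0.06 in N-limited opi1Δ against minimum CO2 and -0.58 in N- against C-limited ino2Δino4Δ (limma adjusted p = 0.861, 0.87 and 0.0765). The 3 comparisons with lower HAP1 all use the same arrays of the C-limited reference and are not independent, while the other 3 do not use them. These comparisons were chosen by the calls of HMG1, and a link between HAP1 and HMG1 was not tested. HAP1 was -0.87 in opi1Δ at minimum CO2 against the C-limited reference, without passing (limma adjusted p = 0.0224). Of 13 genes for degradation and sterol sensing of the reductase, few passed: 3 were higher in C-limited ino4Δ, where 6.64% of all genes were higher. Among them were HRD1, the ubiquitin ligase of Hmg2 (0.60, limma adjusted p = 4.54e-04), and UBC7, its ubiquitin-conjugating enzyme (0.77, limma adjusted p = 7.95e-04). Without the mismatched arrays they were at 0.74 and 1.06. UBC7 was also higher in the N-limited than the C-limited reference (0.55, limma adjusted p = 0.00499; 0.59 without the array of the shared deviation). In opi1Δ at maximum CO2 1 was higher and 1 lower against the C-limited reference, where 17.5% of all genes were higher and 13.7% lower. These were NSG1 (0.54), which binds and stabilises Hmg2, and CDC48 (-0.72), the segregase that extracts ubiquitinated proteins from the membrane. With all arrays none passed in opi1Δ at minimum CO2, in the arrays labelled ino2Δ or ino2Δino4Δ under C-limitation, or in any N-limited deletion against its reference. Without the arrays of the shared deviation 1 array each was left at minimum CO2 and in N-limited ino2Δino4Δ, and no count is given.

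ERG12 and ERG8 encode mevalonate kinase and phosphomevalonate kinase. ERG12 ranged over 7.43 to 8.38, with group means of 7.86 to 8.28, and passed nowhere. ERG8 read 7.66, 7.99 and 7.73 in opi1Δ at minimum CO2, against 8.36, 8.37 and 8.37 in the C-limited reference. The groups did not overlap, and ERG8 was 1.49-fold lower (log2 fold change -0.58, SE 0.15, limma adjusted p = 0.00884). N-limited opi1Δ, at 8.30, 8.29 and 8.35, lay 0.52 above opi1Δ at minimum CO2 (SE 0.15, limma adjusted p = 0.00627). The effect of OPI1 deletion on ERG8 differed between limitations, by 0.87 (SE 0.21, limma adjusted p = 0.00817), the only member for which this passed. These 3 calls sat near the threshold. The first was lost with any 1 array but opi1Δ replicate 2 at minimum CO2 left out (-0.58 to -0.51), and the second likewise (0.46 to 0.53). The third was lost with 9 of 12 arrays left out in turn (0.62 to 0.88). Without the arrays of the shared deviation 1 array was left at minimum CO2, and the 3 values were -0.38, 0.33 and 0.42. For HMG2 the effect of OPI1 deletion then differed between limitations by -0.98.

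MVD1, mevalonate diphosphate decarboxylase, and ERG20, farnesyl diphosphate synthase, followed each other closely (Pearson r = 0.98 over 33 arrays and 0.96 over the 28 arrays without the shared deviation, a description). ERG20 read 10.67, 10.48 and 10.61 in N-limited opi1Δ, against 8.13, 9.94 and 10.15 in the N-limited reference. MVD1 read 9.87, 9.72 and 9.86 in N-limited opi1Δ, against 7.95, 9.26 and 9.44 in the N-limited reference. For both genes the 3 opi1Δ arrays were the highest of all 33. The differences, 1.17 (SE 0.41) and 0.93 (SE 0.31), did not pass (limma adjusted p = 0.121 and 0.0997). Without the arrays of the shared deviation, which takes 1 reference array away and narrows the spread, they were 0.54 and 0.47 and passed (limma adjusted p = 2.66e-04 and 1.28e-04).

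Against its own C-limited cultures, N-limited opi1Δ was higher in ERG20 and MVD1. ERG20 read 10.67, 10.48 and 10.61 under N-limitation, against 8.15, 9.80 and 8.28 at minimum CO2, a 3.57-fold difference (1.84 log2, SE 0.41, limma adjusted p = 8.03e-04). MVD1 was 2.74-fold higher (1.45 log2, SE 0.31, limma adjusted p = 5.61e-04), with 7.93, 9.22 and 7.95 at minimum CO2. Both calls held with any 1 array left out (1.54 to 2.37 for ERG20 and 1.23 to 1.88 for MVD1). Without replicates 1 and 3 at minimum CO2, which share the deviation, the values against the 1 remaining array were 0.78 and 0.59, more than 1.5 times smaller.

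N-limited ino2Δino4Δ had the lowest means of both genes, 8.11 ± 0.97 for ERG20 and 8.13 ± 0.72 for MVD1 (SD, n = 3). ERG20 read 7.73, 9.21 and 7.40 there, against 9.47, 9.49 and 9.53 on the arrays labelled C-limited ino2Δino4Δ, and passed (-1.38, SE 0.41, limma adjusted p = 0.00915). IDI1, isopentenyl diphosphate isomerase, read 8.03, 8.86 and 7.52 under N-limitation, against 9.13, 8.87 and 8.99 under C-limitation, and passed too (-0.86, SE 0.24, limma adjusted p = 0.00641). In both genes replicate 2 stood more than 0.8 above the others. Either call was lost with any 1 array but N-limited replicate 2 left out. Without the arrays of the shared deviation replicate 2 was the only N-limited array left, and the values were -0.28 and -0.13. Without the arrays that went against their labels they were -1.40 and -0.79, past the threshold in neither gene (limma adjusted p = 0.0326 and 0.0286). Against the N-limited reference, ERG20 differed by -1.30 and MVD1 by -0.76, without passing (limma adjusted p = 0.0199 and 0.0759). In the fit without the arrays of the shared deviation the 1 remaining ino2Δino4Δ array was lower than the reference in ERG20 (-0.83) and MVD1 (-0.45) and higher in ERG8 (0.45).

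In the reference strain IDI1 read 7.64, 8.50 and 8.80 under N-limitation, against 8.99, 9.02 and 9.09 under C-limitation. The groups did not overlap, but the difference of -0.72 (SE 0.24) did not pass (limma adjusted p = 0.0216), and without the array of the shared deviation it was -0.38 (limma adjusted p = 0.0357). Without that array the N-limited reference was higher than the C-limited reference in ERG20 (0.41, limma adjusted p = 5.96e-04) and in MVD1 (0.27, limma adjusted p = 0.00375).

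ERG9, squalene synthase, takes farnesyl diphosphate into the sterol branch. It read 8.27, 8.26 and 8.24 in opi1Δ at maximum CO2, against 9.26, 9.32 and 9.31 in the C-limited reference. It was 2.06-fold lower (log2 fold change -1.04, SE 0.23, limma adjusted p = 7.32e-04), and the call held with any 1 array left out. At minimum CO2 it read 8.11, 9.18 and 8.15, which is 0.82 below the reference without passing (limma adjusted p = 0.016). Without the arrays of the shared deviation, opi1Δ at maximum CO2 lay 0.92 below the 1 remaining array at minimum CO2, and for ERG13 it lay 0.97 below that array. On the N-limited arrays of opi1Δ, ino2Δ and ino4Δ ERG9 stayed between 9.20 and 9.43.

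The 5 arrays of the shared deviation carried much of the members' spread. In opi1Δ at minimum CO2, ERG13, MVD1, ERG20 and ERG9 were each more than 1 log2 unit lower on replicates 1 and 3 than on replicate 2: ERG13 read 8.05, 9.91 and 8.11 on replicates 1, 2 and 3, where the C-limited reference read 9.77 to 9.84. In the N-limited reference, ERG13 read 8.12, 9.73 and 10.06. In N-limited ino2Δino4Δ it read 8.19, 9.62 and 7.73. ERG10 showed no such gap in any of the 3 groups. Over all groups the within-group SD was 0.56 for ERG13, 0.53 for ERG20 and 0.40 for MVD1, wider than in 98.8%, 98.4% and 94.8% of genes, against a median of 0.17 over all genes. Without the 5 arrays it was 0.21, 0.10 and 0.07, against a median of 0.11. Without replicate 2 of opi1Δ at minimum CO2, ERG13 (-1.73), ERG20 (-1.41), ERG9 (-1.17) and MVD1 (-1.14) passed as lower than the C-limited reference, with limma adjusted p of 0.00268, 0.00732, 3.31e-04 and 0.00443. Without replicates 1 and 3, and the other arrays of the shared deviation, 1 array was left at minimum CO2. On it the same genes lay 0.10, 0.17, -0.12 and 0.14 from the reference. At minimum CO2 the direction for ERG13, ERG20 and MVD1, and the size for ERG9, therefore depended on which arrays were used.

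**Figure D4:**
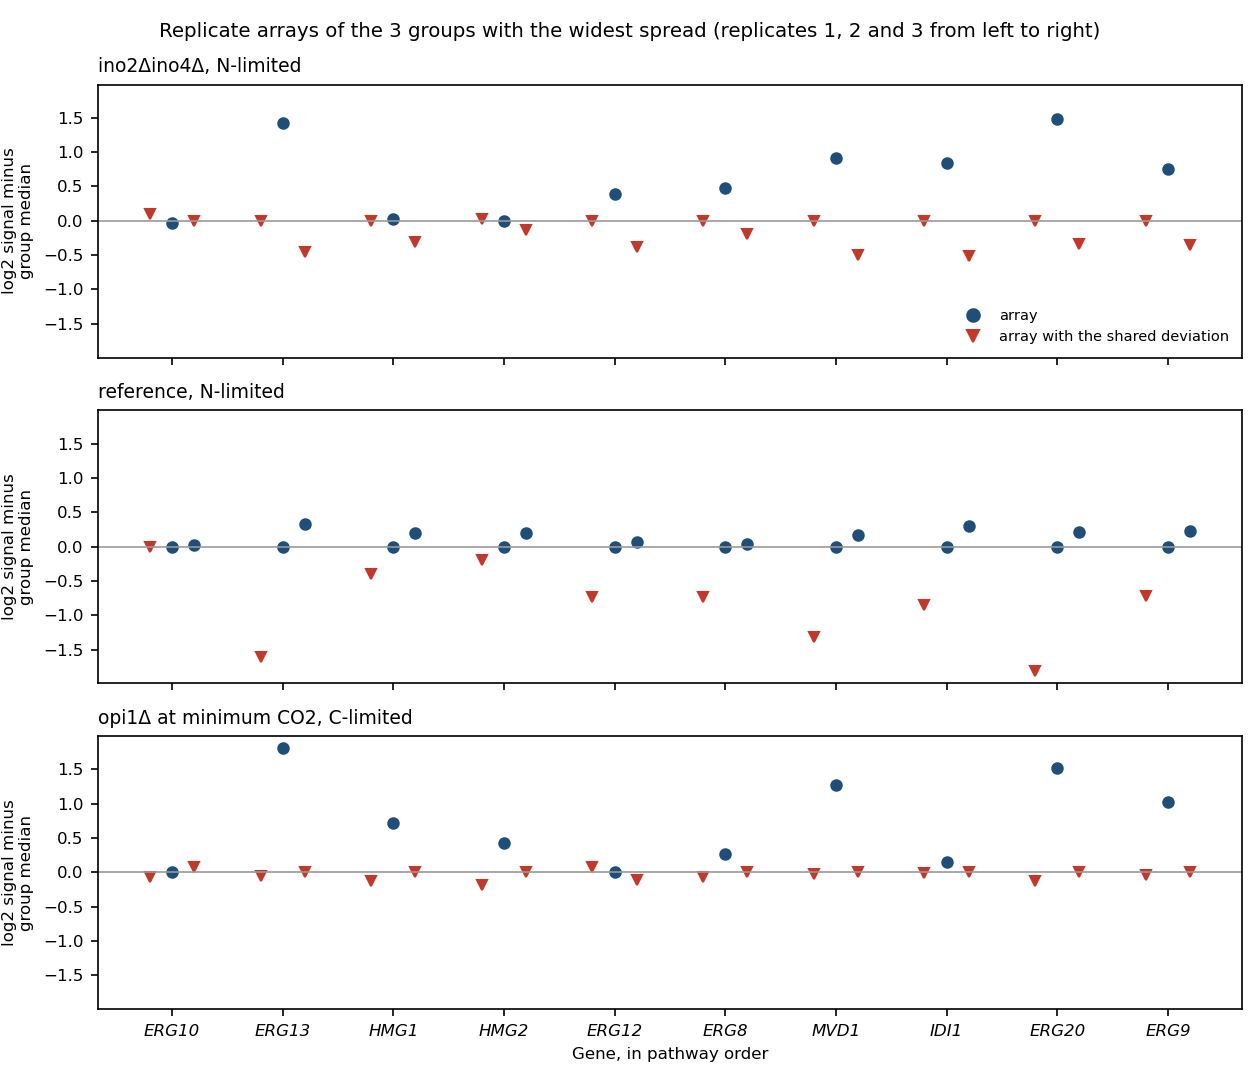
Log2 signal minus the median of its group (vertical axis) for the 10 genes (horizontal axis) on the 3 replicate arrays of N-limited ino2Δino4Δ, the N-limited reference and C-limited opi1Δ at minimum CO2; triangles mark the arrays with the shared deviation. ERG13, MVD1, ERG20 and ERG9 are spread widely in all 3 groups and ERG10 in none.

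The members did not form 1 block. Over the 33 arrays, which share hybridisation and normalisation, the 45 pairs had a median Pearson r of 0.54, 4 of them at 0.80 or above (MVD1 with ERG20, and ERG13 with ERG9, ERG20 and MVD1). Over the 28 arrays without the shared deviation the median was 0.37, and over the 11 group means 0.40. ERG10 and HMG2 had the lowest median r to the other members over 33 arrays, 0.21 and 0.22, but over the 28 arrays MVD1 and ERG20 did, at 0.19 and 0.21, and ERG10 had 0.49. The 8 genes outside the pathway most like the mean of the members over 33 arrays, each centred on its own mean, were RPT5, ATG22, PUP1, PRB1, RPN7, TDH3, PPH22 and SKN1 (r = 0.93 to 0.94). RPT5, PUP1 and RPN7 encode proteasome subunits and PRB1 a vacuolar protease. Over the 28 arrays the 8 were RPN5, AHP1, PIL1, PLN1, PRC1, RPN7, WTM1 and PRB1 (r = 0.91 to 0.94), so that only RPN7 and PRB1 stood in both lists. Over the 11 group means PRB1, PUP1 and RPT5 were among the 8 and RPN7 was not. No p-value is given for these correlations.

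Of 12 genes between pyruvate and acetyl-CoA, 3 were higher and 5 lower in the N-limited than the C-limited reference, where 14.7% of all genes were higher and 8.61% lower; the list was not tested. ADH2, the glucose-repressed alcohol dehydrogenase, differed by -6.82 and ACS1, the acetyl-CoA synthetase of respiring cells, by -4.20, while PDC5, a pyruvate decarboxylase, differed by 3.95 (limma adjusted p = 6.18e-08, 4.62e-08 and 2.68e-10), and without the array of the shared deviation by -6.85, -4.05 and 4.64. In C-limited opi1Δ at maximum CO2, 6 of 12 were lower than in the C-limited reference, where 13.7% of all genes were lower. They were led by ACS1 (-3.52) and the aldehyde dehydrogenase genes ALD4 (-1.86) and ALD3 (-1.86). At minimum CO2 1 of 12 was lower, PDC6 (-1.13, limma adjusted p = 0.00596), where 4.48% of all genes were lower. Without the arrays of the shared deviation PDC6 was at -1.28, from 1 array.

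The 15 genes after squalene were counted in the same comparisons. Against the C-limited reference, 9 of 15 were lower in opi1Δ at minimum CO2, 8 lower and 1 higher at maximum CO2, 11 lower in the arrays labelled ino4Δ, 2 lower in those labelled ino2Δ and 0 in those labelled ino2Δino4Δ. Of all genes, 4.48% were lower at minimum CO2, 13.7% lower and 17.5% higher at maximum CO2, and 6.74% lower in the arrays labelled ino4Δ. In those labelled ino2Δ and ino2Δino4Δ 0.826% and 0.569% of all genes passed in either direction. ERG3, the C-5 sterol desaturase, was at -2.43 in opi1Δ at minimum CO2, and ERG1, squalene epoxidase, at -1.89 in the arrays labelled ino4Δ (limma adjusted p = 3.81e-05 and 4.02e-04). Without the arrays of the shared deviation ERG3 was at -2.17 on the 1 array left at minimum CO2, and without the mismatched arrays ERG1 was at -2.38. Without the arrays that went against their labels 11 of 15 were lower in ino4Δ and 5 in ino2Δino4Δ, with no share of all genes set beside these counts. The median over the 15 was -1.20 in the arrays labelled ino4Δ, against -0.41 over the 10 members and 0.05 over all genes. In the N-limited reference, 5 of 15 were lower than in the C-limited reference, where 8.61% of all genes were lower. The median was -0.62, against -0.22 over the members and 0.06 over all genes, and 5 of 15 were lower without the array of the shared deviation too. Under N-limitation 0 of 15 passed in opi1Δ, ino2Δ and ino4Δ against the reference, where 2.53%, 0.606% and 0.551% of all genes passed. In ino2Δino4Δ 3 of 15 passed, where 16.1% of all genes passed. Of these, ERG1 (-1.25) and ERG5 (-0.94), the C-22 desaturase, were lower and ERG4 (0.92), the last reductase, was higher. Without the arrays of the shared deviation 1 ino2Δino4Δ array was left, at -0.38 for ERG1, -0.79 for ERG5 and 0.76 for ERG4. Whether the early and the late genes differ was not tested.

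**Figure D5:**
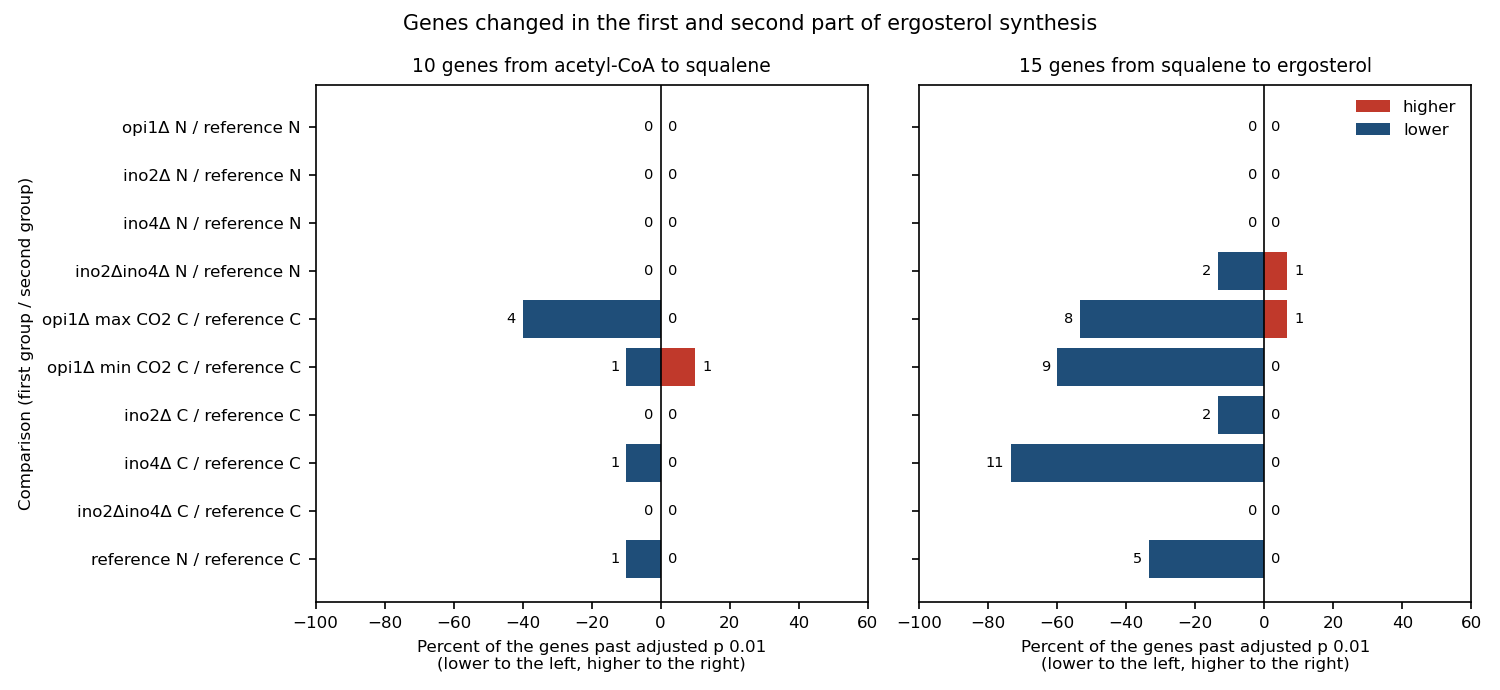
Percent of the 10 genes from acetyl-CoA to squalene (left) and of the 15 genes from squalene to ergosterol (right) with limma adjusted p below 0.01, lower to the left and higher to the right of 0, in 10 comparisons of a first with a second group (vertical axis); the counts are printed beside the bars. The C-limited ino4Δ comparison has 1 of 10 early genes and 11 of 15 late genes lower, where 6.74% of all genes were lower.

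Of 17 genes that draw on farnesyl diphosphate outside the sterol branch, 4 were higher in opi1Δ at maximum CO2 than in the C-limited reference, among them STE14 (0.83), which methylates prenylated proteins, RER2 (0.54), a dolichol synthase, and CDC43 (0.46), a subunit of a protein prenyl transferase; 17.5% of all genes were higher in that comparison. In the arrays labelled C-limited ino4Δ 5 of 17 were higher, among them COQ1 (0.65), which makes the ubiquinone tail, and COX10 (0.74), which makes haem O, where 6.64% of all genes were higher; without the mismatched arrays they were 0.83 and 1.02. In N-limited opi1Δ, ino2Δ and ino4Δ none of the 17 passed against the reference. Of all genes 2.53%, 0.606% and 0.551% passed there. Without the array of the shared deviation 2 of the 17 passed in opi1Δ, with no share of all genes set beside this count. DPP1, a phosphatase that also acts on isoprenoid diphosphates, was 1.24 higher in the N-limited than the C-limited reference and 1.43 lower in N-limited ino2Δino4Δ than in the N-limited reference (1.55 and -1.33 without the arrays of the shared deviation).

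Regulators and hypoxic genes were read beside the members. UPC2 and ECM22, the sterol-responsive activators, were among 16 genes for sterol regulation, uptake and esterification, of which at most 6 passed in any comparison. Those were N-limited opi1Δ and opi1Δ at maximum CO2, each against minimum CO2, where 27.7% and 45.4% of all genes passed. ECM22 was lower in N-limited ino2Δ than in the arrays labelled C-limited ino2Δ (-0.45, limma adjusted p = 0.00582). SUT1, a regulator of sterol uptake, was higher by 0.79 in opi1Δ at maximum CO2 and by 0.55 in the arrays labelled C-limited ino4Δ, both against the C-limited reference, and by 0.81 in N-limited ino2Δino4Δ against the N-limited reference. Without the mismatched arrays the ino4Δ value was 0.68. Without the arrays of the shared deviation the ino2Δino4Δ value was 0.52, from 1 array. Of 13 hypoxic genes, 5 were lower and 1 higher in the N-limited than the C-limited reference, where 8.61% of all genes were lower and 14.7% higher. TIR3 (-2.29) and TIR4 (-1.47), cell wall mannoproteins, were lower and COX5B (1.42), the hypoxic cytochrome oxidase subunit, was higher. Without the array of the shared deviation these were -2.23, -1.45 and 1.19. The list of Ino2-Ino4 targets held 15 genes, among them FAS1 and FAS2 for fatty acid synthase. Of these 15, 9 were higher in N-limited opi1Δ than in the N-limited reference. In N-limited ino2Δ, ino4Δ and ino2Δino4Δ 6, 6 and 11 were lower than in that reference. In each of these comparisons 0 of the 10 members passed. Of all genes 2.53%, 0.606%, 0.551% and 16.1% passed there in either direction. Without the arrays of the shared deviation the counts of targets were 10 higher in opi1Δ and 8 lower in each of ino2Δ and ino4Δ. Of the 10 members, 2 then passed in opi1Δ. No share of all genes is set beside the counts without those arrays.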

How the data were processed

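RNA of 33 chemostat samples was hybridised to Affymetrix Yeast Genome 2.0 arrays. The deposited values are log2 signals per probe set, which the authors summarised and normalised jointly with PLIER, version not given in the sources used here; the labels and the methods name different RNA kits. Of 10928 probe sets, 5498 were paired with a S. cerevisiae gene, and the 47 genes with several were read from the brightest, leaving 5449. Background was the 95th percentile of the 1746 probe sets listed for other genes. No depth exists for arrays; 3 arrays a group limit precision.

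Groups came from the labels. limma 3.58.1 (R 4.3.3) fitted all 11 groups with 22 residual degrees of freedom, and 19 comparisons were adjusted by Benjamini-Hochberg over 5449 genes with a threshold of 0.01. The fit was run on simulated data with independent noise on each array, so without a deviation shared between arrays. HMG1 minus HMG2 was tested by exact permutation (scipy 1.17.1). Python 3.11.15 was used. The members, the 7 other gene lists and the 2 sets of arrays left out were chosen with earlier results of these data known. Named genes are all members, up to 3 called genes with the largest change per list and comparison, the deleted genes with INO1, and the 8 genes most like the members' mean. Genes outside that rule were named after their values were seen. Alternatives covered scaling, test, samples in the fit, threshold, probe sets, dim genes and arrays left out. Leaving out arrays for HMG1 minus HMG2 was chosen after seeing the data. Promoter motifs were not searched, and no sequence is given here.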

Additional observations from a re-analysis of the deposited data

Results flagged for a closer look

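The effect of a deletion was tested for a difference between N- and C-limitation as N-limited minus C-limited log2 fold change, with limma over all genes. For OPI1 deletion, with minimum CO2 as the C-limited sample, 4.73% of all genes differed. Of the members 1 differed, ERG8 by 0.866 (adjusted p = 0.00817, and 0.42 without the arrays of the shared deviation). The ERG8 call was lost with 9 of 12 arrays left out in turn. After squalene, ERG3 differed by 2.691 (adjusted p = 0.00108, and 1.95 without those arrays), ERG4 by 1.782 (adjusted p = 2.69e-04, and 1.40), ERG26 by 1.576 (adjusted p = 0.00266, and 1.03) and ERG2 by 1.112 (adjusted p = 1.65e-04, and 1.08). Without those arrays 1 array was left at minimum CO2.

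For INO4 deletion no member differed with all arrays, where 3.43% of all genes differed. Without the arrays of mismatched INO levels HMG1 (1.21, adjusted p = 5.28e-04) and IDI1 (1.31, adjusted p = 0.00964) differed. Without those of the shared deviation ERG9 (0.49, adjusted p = 0.00327) and IDI1 (0.78, adjusted p = 0.0079) did. No share of all genes is set beside the calls with arrays left out, so they do not show whether the shift is particular to the members. Among the late genes CYB5, the electron donor of several late steps, differed by 2.146 (adjusted p = 0.0027; 1.78 without the arrays of the shared deviation), ERG5 by 1.415 (adjusted p = 0.00648; 1.26), ERG25 by 1.231 (adjusted p = 0.00771; 1.203) and ERG2 by 0.803 (adjusted p = 0.00517; 0.66). Without those arrays ERG5 and ERG25 no longer passed (adjusted p = 0.0101 and 0.0106). Without the arrays of mismatched INO levels all 4 passed, CYB5 at 2.52, ERG5 at 1.66, ERG25 at 1.45 and ERG2 at 0.85.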

How the results depend on the processing

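HMG1, HMG2, ERG9 and ERG10 in opi1Δ at maximum CO2 against the C-limited reference passed under every alternative run. Each member and comparison with a call or a larger fold change was read again under each alternative. Of these readings 1207 kept direction and call status, 45 gained and 89 lost the call and 19 turned sign. Those that kept their status include differences that passed neither in the main fit nor in the alternative. The count of members called against the C-limited reference in opi1Δ at minimum CO2 was 2; it was 1 with arrays centred on their median, with quantile normalisation or with the replicate block, and 0 with trend and robust settings, with only the compared groups in the fit, with the methods' t-test or at adjusted p 0.001. In opi1Δ at maximum CO2 it was 4, against 8 with only the compared groups and 7 with the t-test, and in arrays labelled C-limited ino4Δ it was 1, against 0 in those 3 settings (compared groups only, t-test, 0.001). With only the compared groups the counts were 0 for N-limited opi1Δ against minimum CO2 (4 in the main fit), 3 for N- against C-limited ino2Δ (1), 2 for ino4Δ (0), 0 for ino2Δino4Δ (3) and 0 for the difference of OPI1 effects (1). With the t-test they were 0, 2 and 0 for the same comparisons of opi1Δ, ino2Δ and ino2Δino4Δ, 0 for the N- against the C-limited reference (1) and 1 for maximum against minimum CO2 (3). Without the arrays of mismatched INO levels they were 1 for ino4Δ (0) and 0 for ino2Δino4Δ (3) between limitations, and 2 for the difference of INO4 effects (0). Without the arrays of the shared deviation they were 2 for N-limited opi1Δ against the reference (0), 4 for the reference between limitations (1) and 2 for the difference of INO4 effects (0). Counts that rest on a group with 1 array left are not given. At adjusted p 0.05 they were 3 for N-limited ino2Δino4Δ against the reference, 3 for the reference and 6 for ino2Δino4Δ between limitations, and 5 for maximum against minimum CO2. They were 5, 2 and 1 for the differences of OPI1, INO4 and ino2Δino4Δ effects. At 0.001 they were 2 for opi1Δ and 0 for ino2Δino4Δ between limitations and 0 for the OPI1 difference. Quantile normalisation, and 16 added before log2, each gave 1 for N-limited ino2Δino4Δ against the reference. The share of all genes that passed in each setting was not set beside these counts, nor beside those with 1 array left out below. The counts therefore do not show whether a shift is particular to the members. Without the arrays of the shared deviation the median within-group SD of all genes itself was 0.108, against 0.175 with them. The cause of these shifts was not tested.

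With 1 array left out, the counts were 0 to 5 for opi1Δ at minimum CO2, 4 at maximum CO2, 0 to 1 for ino2Δ and ino4Δ and 0 for ino2Δino4Δ, all C-limited; under N-limitation 0 for opi1Δ, ino2Δ and ino4Δ and 0 to 4 for ino2Δino4Δ. Between limitations they were 1 to 2 in the reference, 2 to 5 in opi1Δ, 1 in ino2Δ, 0 to 1 in ino4Δ and 0 to 6 in ino2Δino4Δ, with 3 to 5 for maximum against minimum CO2, and 0 to 5, 0 to 1, 0 to 2 and 0 to 1 for the differences of OPI1, INO2, INO4 and ino2Δino4Δ effects. HMG1 minus HMG2 differed by -1.384 to -1.264 between limitations in the reference; against the C-limited reference by -0.655 to -0.506 in opi1Δ at minimum CO2, -0.837 to -0.727 at maximum CO2, -0.748 to -0.435 in ino2Δ, -1.137 to -0.924 in ino4Δ and -0.696 to -0.388 in ino2Δino4Δ; and under N-limitation by 0.077 to 0.18 in opi1Δ, 0.09 to 0.193 in ino2Δ, 0.067 to 0.17 in ino4Δ and 0.21 to 0.341 in ino2Δino4Δ.

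Signs turned without the arrays of the shared deviation for ERG13 (0.104), MVD1 (0.142) and ERG20 (0.171) in opi1Δ at minimum CO2 against the C-limited reference, for MVD1 (-0.057) and ERG20 (-0.289) at maximum against minimum CO2, for ERG13 in N-limited opi1Δ against minimum CO2 (-0.039), and for ERG13 (-0.127) and ERG9 (-0.063) in the difference of OPI1 effects. With those arrays left out, or N-limited reference replicate 1 alone, ERG13 turned in N-limited opi1Δ (-0.024), ino2Δ (-0.018) and ino4Δ (-0.067) and between limitations in the reference (0.089), and ERG20 in the difference of INO2 effects (-0.113). With each array left out in turn these ranged over -0.024 to 0.944, -0.018 to 0.949, -0.067 to 0.9, -0.879 to 0.089 and -0.113 to 0.896. HMG1 turned in the arrays labelled C-limited ino2Δ without those of mismatched INO levels (0.006). The median correlation between members was 0.372 without the arrays of the shared deviation and 0.396 over the 11 group means. Replicate numbers did not pair the arrays: 165 same-numbered pairs had a median correlation of deviations of 0.018, 39 were over 0.1 and 14 arrays correlated best with an array of their own number. The t-test was not run for the 4 differences of effects, and a motif search of promoters was not run.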

Other observations

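Outside the pathway, the profile closest to that of single members, over 33 arrays, was that of RPN7 for ERG13 (r = 0.963), PUP1 for ERG9 (r = 0.962), MCM1 for MVD1 (r = 0.942) and PGA1 for ERG20 (r = 0.936). It was AKL1 for HMG2 (r = 0.923), RNR2 for IDI1 (r = 0.916), GDH2 for HMG1 (r = 0.908), NPL4 for ERG10 (r = 0.863), RPT5 for ERG12 (r = 0.84) and TPM1 for ERG8 (r = 0.834). For ERG20 ACS2 came after PGA1 (r = 0.935). ACS2 and GDH2 are described here because they were chosen after the values were seen. ACS2 encodes the acetyl-CoA synthetase of glucose-grown cells and GDH2 the NAD-dependent glutamate dehydrogenase. These values describe the arrays and carry no test.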
